A study of Mus musculus with 9 samples.

Results

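Prostaglandin synthesis and response were followed in 8 genes: Pla2g4a, which releases the substrate, the cyclooxygenases Ptgs1 and Ptgs2, the terminal synthases Ptges, Ptges2, Ptges3 and Ptgis, and the receptor Ptger4. They were taken by name from the deposited gene table, so 8 of its 56289 genes are described here. The rule itself uses no measured value, but the genes were chosen with earlier results of these data known. Poly(A) RNA was sequenced from RAW264.7, a mouse macrophage-like line from the BALB/c strain, in 3 groups of 3 libraries. The Con cultures were untreated, the TNF-α cultures received recombinant human TNF-α at 20 ng/ml for 24 h, and the TNF-α+WBT cultures received the same TNF-α together with WBT at 1.0 μg/ml for 24 h. WBT is the Wang Bi tablet, a multi-herb preparation given for rheumatoid arthritis, and the sample labels call it WBP. The doses are those of the study's methods, and the study describes the 3 libraries of a group as biological replicates, but the labels do not name separate cultures, so p-values measure the spread between these libraries.

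Prostaglandins are made from arachidonic acid. Cytosolic phospholipase A2, encoded by Pla2g4a, cuts it from membrane phospholipids, and the cyclooxygenases COX-1 (Ptgs1) and COX-2 (Ptgs2) turn it into prostaglandin H2, which terminal synthases convert to prostaglandin E2, prostacyclin and other prostanoids. COX-1 is usually described as the constant form, and COX-2 together with the microsomal synthase mPGES-1 (Ptges) as the forms that inflammatory cytokines induce. The question the 3 groups address for these genes is whether their mRNA differs after TNF-α and whether it differs again when WBT is present.

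The macrophage label was not borne out by marker genes. Of 15 macrophage genes, 1 (Cd14) lay above 1 FPKM (fragments per kilobase of transcript, scaled to library depth) in all 9 libraries. Another 7 (Adgre1, Ctss, Cybb, Itgam, Ptprc, Spi1 and Tyrobp), which include the defining ones, had 0 FPKM in every library. Of 11 fibroblast genes 8 were above 1 FPKM in all libraries, and of 9 Schwann cell and neural crest genes 6. The summed level of the macrophage list was 6.14 to 7.50 FPKM in Con, 7.15 to 8.15 in TNF-α and 7.24 to 8.80 in TNF-α+WBT, that of the fibroblast list 3487 to 3733, 3869 to 3946 and 3772 to 3867, and that of the Schwann cell and neural crest list 823 to 871, 689 to 734 and 733 to 764. The parts of these shifts in the results below were not tested, and in bulk RNA fewer cells of a type cannot be told apart from less RNA per cell. Estimated depth was 20218300 to 26055150 fragments in Con, 18888250 to 22424250 in TNF-α and 16827250 to 19719700 in TNF-α+WBT.

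All 8 genes were detected in all 9 libraries, at widely different levels. Ptges3 was the highest at a mean of 91.5 FPKM (SD 3.42, n = 9 libraries), above 97.6% of the 25417 genes tested. Pla2g4a followed at 8.98 ± 0.562, then Ptgs2 at 4.25 ± 0.925, Ptgs1 at 3.58 ± 0.730, Ptges2 at 2.54 ± 0.426 and Ptges at 2.28 ± 0.542 FPKM. Ptgis, at 0.253 ± 0.0689, and Ptger4, at 0.135 ± 0.0533 FPKM, came last. In this order Ptges3 lay above Pla2g4a, Pla2g4a above Ptgs2 and Ptges above Ptgis without overlap of their ranges over the 9 libraries. The ranges of the other neighbours overlapped, but within a library Ptgis was above Ptger4 in 9 of 9 and Ptgs1 above Ptges2 in 8 of 9. Ptgs2 was above Ptgs1 in 7 of 9, which include all 3 Con libraries, and Ptges2 above Ptges in 6 of 9. The estimated fragments behind a value were 2968 to 5129 for Ptges3, 73.4 to 131 for Ptges and only 5.29 to 15.1 for Ptger4, so the precision differed widely between the genes.

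**Figure D1:**
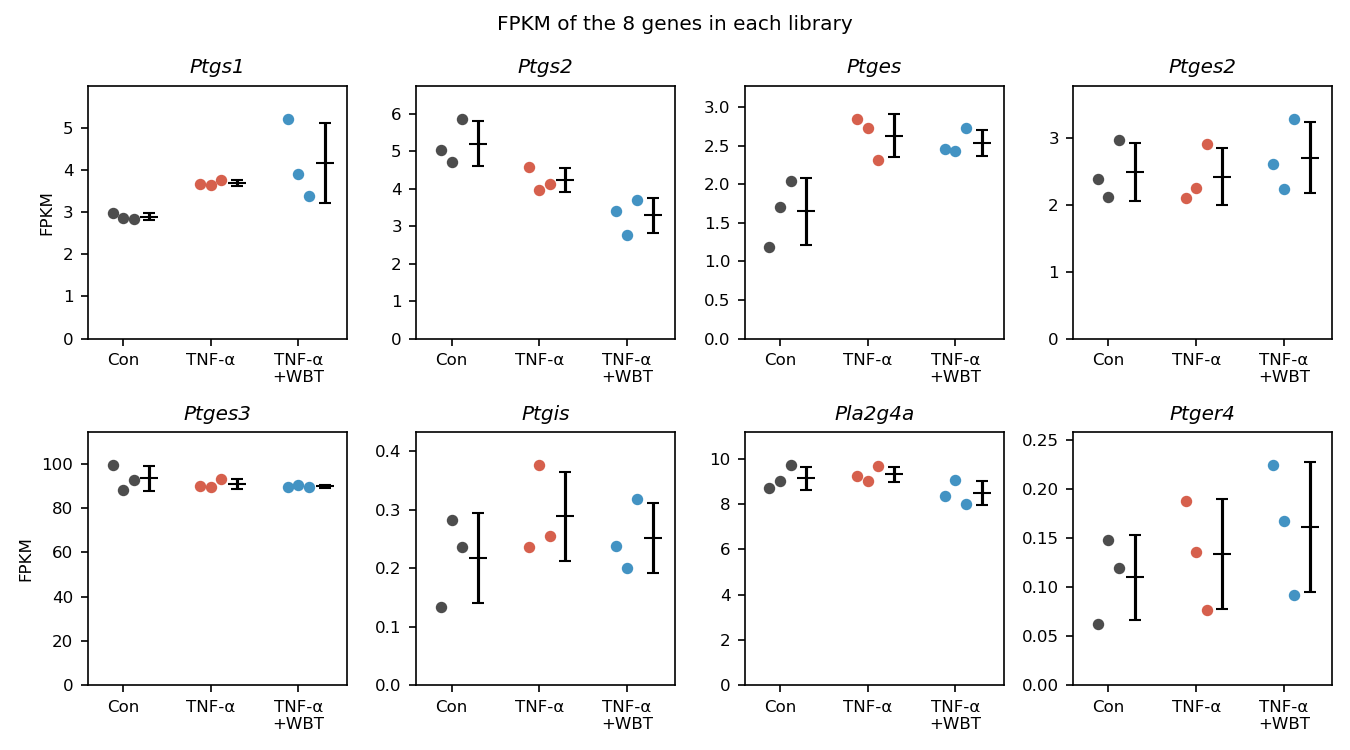
FPKM of the 8 genes in each library (points, replicates 1 to 3 from left to right) with the mean and SD of the 3 libraries of a group (bars), each panel on its own linear axis from 0. Ptgs2 steps down from Con to TNF-α to TNF-α+WBT, Ptges and Ptgs1 lie above Con in both treated groups, and the groups of the other 5 genes overlap.

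Genes were compared with limma on log2(FPKM + 0.1), a scale that understates the changes of low genes, and p-values were adjusted by Benjamini-Hochberg over all 25417 tested genes. After TNF-α none of the 8 genes passed an adjusted p of 0.05 in limma, where 4.86% of all tested genes did. At an unadjusted p under 0.05, 2 genes (Ptgs1 and Ptges) passed, against 16.1% of all genes, and 0 passed when a fold change over 2 was also required, the study's threshold, against 2.42%. For 3 genes (Ptgs1, Ptgs2 and Ptges) the 3 TNF-α libraries did not overlap the 3 Con libraries, as was so for 21.2% of all genes. The median log2 fold change was 0.09 over the 8 genes and 0.003 over all tested genes.

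When WBT was present with TNF-α, none of the 8 genes differed from TNF-α alone at an adjusted p under 0.05 in limma, and 0.00393% of all tested genes did (1 gene). At an unadjusted p under 0.05, 1 gene (Ptgs2) passed, against 6.31% of all genes, and it was also the only one of the 8 whose groups did not overlap, against 11.0%. With a fold change over 2 required, 0 passed, against 1.12%. Set against Con, TNF-α+WBT gave 1 call, Ptgs2, at an adjusted p under 0.05, where 3.71% of all genes passed. Unadjusted, 3 of the 8 passed (Ptgs1, Ptgs2 and Ptges), against 14.7%, the same 3 had groups that did not overlap, against 19.5%, and 0 passed with a fold change over 2, against 2.29%. The medians over the 8 genes were -0.03 and 0.14 on the log2 scale. The 3 comparisons share libraries and are not independent of each other.

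**Figure D2:**
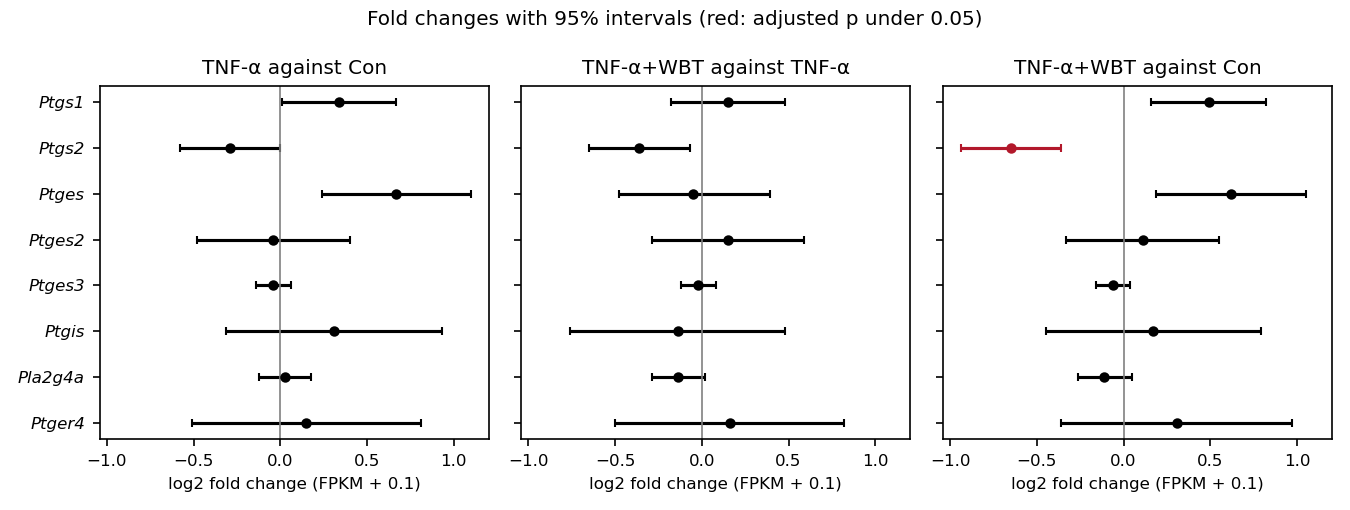
Log2 fold change of each gene (points, on FPKM + 0.1) with its 95% interval from limma, for the 3 comparisons between groups of 3 libraries. The interval of Ptgs2 in TNF-α+WBT against Con, from -0.94 to -0.36, is the only one marked for an adjusted p under 0.05, and the widest intervals are those of Ptgis and Ptger4.

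At the entry of the pathway, no difference of Pla2g4a passed, and its intervals were narrow. The gene lies on chr1:149829618-149961290 (GRCm38, minus strand). Its FPKM was 8.70, 9.01 and 9.71 in Con, 9.26, 9.03 and 9.68 in TNF-α, and 8.36, 9.07 and 8.01 in TNF-α+WBT. All 3 groups overlapped. The log2 fold change was 0.03 (SE 0.07) for TNF-α against Con, with an interval of 0.92 to 1.14 in fold, and -0.14 (SE 0.07) for TNF-α+WBT against TNF-α, with 0.82 to 1.01, and the adjusted p-values in limma were 0.898 and 0.816. One library stood apart at the level of transcripts. In TNF-α+WBT replicate 1 the coding transcript ENSMUST00000111926, with 17 exons, was listed at 3.56 FPKM, while it was listed at 0 in the other 8 libraries. The main coding transcript, ENSMUST00000070200 with 18 exons, was at 4.62 FPKM there and at 7.82 to 9.67 in the others, so the gene total of that library, 8.36, stayed among the rest.

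Ptgs1 lies on chr2:36230426-36252272 (plus strand) and Ptgs2 on chr1:150100031-150108227 (plus strand). The 250 bases before the start of each are shown, as are those before an internal start of Ptges, because these were the 3 genes whose treated and Con libraries did not overlap. The sequences are from RefSeq on GRCm38.p6, 5′ to 3′ in the direction of the gene, and capitals mark the motif matches found. Searched on both strands were a TATA box (TATAAA), a kappa B motif (GGG and CC with any 5 bases between), the core of the cAMP response element (TGACG), an E box (CANNTG), a GC box (GGGCGG), an AP-1 motif (TGANTCA), an EGR motif (GCGGGGGCG or GCGTGGGCG) and a C/EBP motif (TTNNNCAAT).
Ptgs1, chr2:36230176-36230425, plus strand: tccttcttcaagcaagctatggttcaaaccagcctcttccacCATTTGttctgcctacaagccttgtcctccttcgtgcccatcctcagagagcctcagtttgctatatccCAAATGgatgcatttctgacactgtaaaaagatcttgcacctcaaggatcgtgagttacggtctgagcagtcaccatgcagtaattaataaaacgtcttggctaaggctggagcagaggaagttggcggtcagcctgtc
Ptgs2, chr1:150099781-150100030, plus strand: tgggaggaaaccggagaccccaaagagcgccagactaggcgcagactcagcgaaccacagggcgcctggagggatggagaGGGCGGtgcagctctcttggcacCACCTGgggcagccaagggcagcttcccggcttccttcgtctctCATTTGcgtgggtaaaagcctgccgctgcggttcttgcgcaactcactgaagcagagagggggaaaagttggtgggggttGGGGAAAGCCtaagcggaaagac
Ptges, chr2:30903298-30903547, minus strand: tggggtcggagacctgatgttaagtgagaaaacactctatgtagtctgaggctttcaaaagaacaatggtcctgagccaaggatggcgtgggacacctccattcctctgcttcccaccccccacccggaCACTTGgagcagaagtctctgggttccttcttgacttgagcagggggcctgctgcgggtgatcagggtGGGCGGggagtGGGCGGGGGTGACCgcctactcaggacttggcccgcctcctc
The Ptges stretch precedes the start of the coding transcript ENSMUST00000102852 and of ENSMUST00000132244, and lies inside the annotated span of the gene, which extends further upstream. The Ptgs1 stretch held 2 E boxes and no kappa B or GC box match. Ptgs2 held a GC box at -170 to -165, E boxes at -147 to -142 and -103 to -98, and a kappa B match, GGGGAAAGCC, at -23 to -14 from the start. Ptges held an E box at -121 to -116, GC boxes at -53 to -48 and -42 to -37, and a kappa B match, GGGGGTGACC, at -38 to -29 that overlaps the second GC box. None of the 3 held the exact TATA, AP-1, EGR, C/EBP or TGACG letters in these bases. Near matches, such as TTGCGCAAC in Ptgs2, which differs from the C/EBP letters in its last base, were not counted. Sites outside the 250 bases were not searched, so the elements cannot be called absent from these genes. Such matches are common: among 32851 promoters of this length 45.8% held the kappa B letters, 66.2% an E box, 32.7% a GC box, 17.8% TGACG, 12.4% TATAAA, 10.0% the C/EBP, 6.75% the AP-1 and 3.06% the EGR letters. They describe the sequence and are not evidence of binding. Kappa B matches also lay before Ptges3 (at -250 to -241, -87 to -78 and -83 to -74) and Ptger4 (at -189 to -180, -188 to -179 and -104 to -95). Some of these matches overlap each other. The groups of both genes overlapped in every comparison. Of the 8 genes 7 had an entry in the promoter table, all but Ptgis.

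Ptgs2, usually described as the cytokine-inducible cyclooxygenase, was lower after 24 h of TNF-α in every library than in Con, and lowest with WBT. No earlier time was sampled, and the difference between TNF-α and Con did not pass. Its FPKM was 5.04, 4.73 and 5.87 in Con, 4.59, 3.98 and 4.13 in TNF-α, and 3.42, 2.78 and 3.69 in TNF-α+WBT. Each group lay wholly below the one before it. The means were 5.22 ± 0.591, 4.24 ± 0.318 and 3.30 ± 0.467 FPKM (SD, n = 3). TNF-α against Con gave a log2 fold change of -0.29 (SE 0.13) and TNF-α+WBT against TNF-α one of -0.36 (SE 0.13), and neither passed in limma (adjusted p 0.313 and 0.712). Ptgs2 fell in TNF-α+WBT against Con by 0.65 on the log2 scale (SE 0.13, 95% interval -0.94 to -0.36), 0.633 times the Con mean, with an adjusted p of 0.0285 in limma. Between any pair of groups the exact two-sided permutation test gave p = 0.1, the smallest that 3 against 3 libraries allow.

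That call was sensitive to single libraries. Its adjusted p in limma was 0.0788 without Con replicate 1, 0.102 without Con replicate 3, 0.0521 without TNF-α replicate 3, 0.0698 without TNF-α+WBT replicate 1 and 0.0733 without TNF-α+WBT replicate 2, while the log2 fold change stayed between -0.73 and -0.53 in all alternatives run. The main coding transcript, ENSMUST00000035065, carried nearly all of the gene's level and gave -0.64 (SE 0.15) for TNF-α+WBT against Con, with an adjusted p of 0.205 in limma over 80149 transcripts. The values rest on an estimated 447 to 585 fragments in Con, 339 to 431 in TNF-α and 244 to 277 in TNF-α+WBT.

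Ptgs1, the other cyclooxygenase, lay on the opposite side. Its FPKM was 2.99, 2.86 and 2.83 in Con, 3.66, 3.64 and 3.77 in TNF-α, and 5.21, 3.91 and 3.37 in TNF-α+WBT. The Con and TNF-α groups were tight and did not overlap, whereas the TNF-α+WBT libraries spread to both sides of the TNF-α ones. The log2 fold change of TNF-α against Con was 0.34 (SE 0.14, unadjusted p 0.0438, adjusted p 0.291 in limma) and that of TNF-α+WBT against Con 0.49 (SE 0.14, adjusted p 0.132). The latter was 0.318 without TNF-α+WBT replicate 1 and 0.303 with limma-voom on estimated fragments. TNF-α+WBT against TNF-α gave 0.15 (SE 0.14, adjusted p 0.905), and -0.022 without the same replicate 1, the library at 5.21 FPKM.

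By the deposited transcript values, part of the Ptgs1 difference lay in short transcripts annotated as non-coding. None of these passed in TNF-α against Con (adjusted p 0.633 to 0.953 in limma). How fragments were divided among the transcripts is not known. The single coding transcript, ENSMUST00000062069, was at 2.32, 2.19 and 2.24 FPKM in Con, 2.67, 2.41 and 2.47 in TNF-α, and 3.20, 2.40 and 2.38 in TNF-α+WBT. Its treated and Con libraries did not overlap, but the share of all transcripts that separate so was not counted. The log2 fold change of TNF-α against Con was 0.15 (SE 0.15, 95% interval -0.19 to 0.50, adjusted p 0.861 in limma), smaller than that of the gene. Of the 25 tested transcripts of the 8 genes, 0 passed in this comparison at an adjusted p under 0.05, against 0.635% of all 80149. The coding share of the gene's FPKM was 76.5% to 79.1% in Con, 65.5% to 73.0% in TNF-α and 61.3% to 70.5% in TNF-α+WBT. The remainder was shared by 2 retained-intron and 2 processed transcripts, of which ENSMUST00000144319, 573 bases long, ranged from 0.0832 to 0.365 FPKM in Con and from 0.351 to 0.594 in TNF-α. A short transcript gains more FPKM from each fragment than a long one. Estimated fragments compared with limma-voom gave 0.21 (SE 0.13, adjusted p 0.425) for TNF-α against Con, and fragments per 1000000 were 6.73 to 7.07 in Con and 7.74 to 8.28 in TNF-α.

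The balance of the cyclooxygenases can be read within each library. The ratio of Ptgs2 to Ptgs1 FPKM was 1.69, 1.65 and 2.07 in Con, 1.26, 1.09 and 1.09 in TNF-α, and 0.66, 0.71 and 1.10 in TNF-α+WBT. Con did not overlap either treated group, while TNF-α+WBT replicate 3 was within the TNF-α range. The sum of both gene values was 8.11 ± 0.559 FPKM in Con, 7.92 ± 0.316 in TNF-α and 7.46 ± 1.03 in TNF-α+WBT (SD, n = 3). It includes the Ptgs1 transcripts annotated as non-coding, and the coding share of Ptgs1 was lower in both treated groups than in Con. The sum therefore does not give the level of coding transcripts alone. Ptgs2 was the higher of the pair in 7 of 9 libraries by gene value. With coding transcripts only, an alternative chosen after seeing the data, it was the higher in 9 of 9, at ratios of 2.16 to 2.62 in Con, 1.65 to 1.72 in TNF-α and 1.07 to 1.55 in TNF-α+WBT, 3 ranges that did not overlap. These ratios are descriptive and were not tested, and how often other gene pairs separate in this way was not counted. Coding values also depend on how fragments were divided among the transcripts of a gene.

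**Figure D3:**
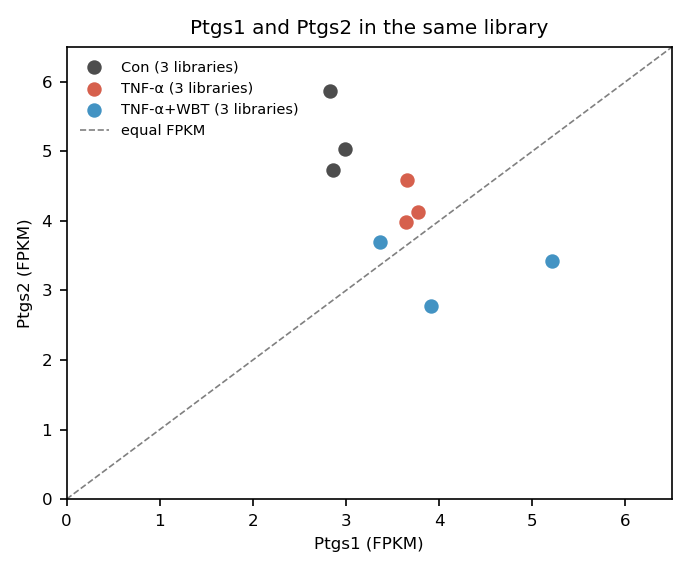
Ptgs1 (x axis, FPKM) against Ptgs2 (y axis, FPKM) of the same library, 3 libraries per group, with a dashed line of equal FPKM. The Con libraries lie at 2.83 to 2.99 FPKM of Ptgs1 and 4.73 to 5.87 of Ptgs2, the TNF-α libraries lie closer to the line, and TNF-α+WBT replicates 1 and 2 lie below it.

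Ptges encodes the microsomal prostaglandin E synthase that works with COX-2, and lies on chr2:30889471-30929863 (minus strand). It had the largest log2 fold change of the 8 genes after TNF-α. Its FPKM was 1.19, 1.71 and 2.05 in Con, 2.85, 2.73 and 2.32 in TNF-α, and 2.46, 2.43 and 2.73 in TNF-α+WBT. Every treated library was above every Con library, and both treated groups overlapped. TNF-α against Con gave 0.67 (SE 0.19, 95% interval 0.24 to 1.10, unadjusted p 0.00705, adjusted p 0.101 in limma), with 1.59 times the Con mean. TNF-α+WBT against Con gave 0.62 (SE 0.19, adjusted p 0.146), and TNF-α+WBT against TNF-α gave -0.05 (SE 0.19, adjusted p 0.991), an interval of 0.72 to 1.31 in fold.

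The adjusted p of Ptges in TNF-α against Con ranged from 0.0529 to 0.243 over the alternatives run, so it missed the threshold in each of them. The coding transcript ENSMUST00000102852 made up 41.7% to 71.8% of the gene's FPKM. It was at 0.855, 0.823 and 1.01 FPKM in Con, 1.29, 1.43 and 1.02 in TNF-α, and 1.27, 1.60 and 1.14 in TNF-α+WBT. Here too the treated and Con libraries did not overlap, but only narrowly, with TNF-α replicate 3 at 1.02 and Con replicate 3 at 1.01 FPKM. The share of all transcripts that separate so was not counted. The log2 fold change of TNF-α against Con was 0.43 (SE 0.21, adjusted p 0.678 in limma). Most of the rest came from ENSMUST00000126588, a processed transcript of 446 bases, at 0.276 to 1.01 FPKM in Con and 1.13 to 1.35 in TNF-α. Compared as estimated fragments with limma-voom, the gene gave 0.55 (SE 0.16, adjusted p 0.0770).

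**Figure D4:**
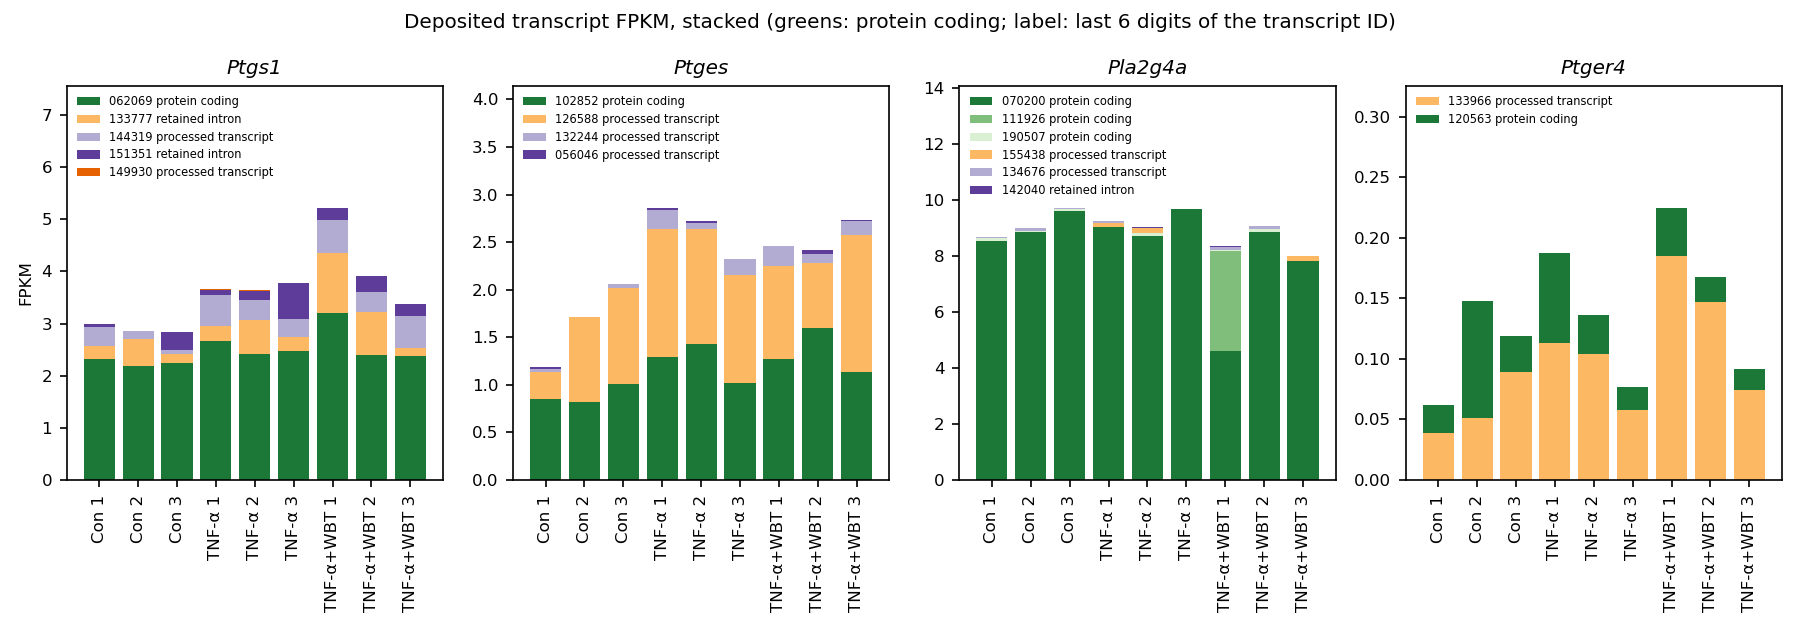
Deposited FPKM of each transcript of 4 genes, stacked per library (x axis) on linear axes from 0, with protein-coding transcripts in greens and others in orange and purple. The coding part of Ptgs1 is 61.3% to 79.1% of a bar and that of Ptges 41.7% to 71.8%, the coding transcript of Pla2g4a listed at 3.56 FPKM appears in TNF-α+WBT replicate 1 only, and the coding part of Ptger4 is 12.1% to 65.6%.

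No difference of the other prostaglandin E synthases passed. Ptges2, the membrane-associated form mPGES-2 (chr2:32395896-32405772, plus strand), was at 2.38, 2.12 and 2.97 FPKM in Con, 2.10, 2.25 and 2.91 in TNF-α, and 2.60, 2.23 and 3.28 in TNF-α+WBT. The groups overlapped, and its log2 fold changes were -0.04 (SE 0.19) after TNF-α and 0.15 (SE 0.19) for TNF-α+WBT against TNF-α, and in limma the adjusted p was 0.960 and 0.936, with an interval of 0.72 to 1.32 in fold after TNF-α. The latter value was 0.005 without TNF-α+WBT replicate 3, 0.056 without TNF-α replicate 1, 0.284 without TNF-α replicate 3, 0.274 without TNF-α+WBT replicate 2 and 0.008 with limma-voom on estimated fragments. The retained-intron transcript ENSMUST00000130121 varied from 0.227 to 1.30 FPKM between libraries, while the coding transcript ENSMUST00000028162 stayed within 1.76 to 2.33.

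Ptges3 encodes p23, a co-chaperone of Hsp90 that also acts as the cytosolic prostaglandin E synthase, and lies on chr10:128058954-128077272 (plus strand). It was at 99.4, 88.3 and 93.0 FPKM in Con, 89.9, 89.6 and 93.4 in TNF-α, and 89.6, 90.4 and 89.6 in TNF-α+WBT. The groups overlapped, and this was the most precisely measured of the 8 genes. Its log2 fold change was -0.04 (SE 0.04) after TNF-α, an interval of 0.91 to 1.04 in fold, and -0.02 (SE 0.04) for TNF-α+WBT against TNF-α, an interval of 0.92 to 1.06. A minor coding transcript, ENSMUST00000084771, was at 0.551, 0.483 and 0 FPKM in Con, at 1.11, 1.63 and 1.82 in TNF-α, and at 0.786, 1.60 and 1.49 in TNF-α+WBT. Its treated libraries lay above those of Con, with an adjusted p of 0.399 in limma for TNF-α against Con. How many of all transcripts separate so was not counted. The processed pseudogene Ptges3-ps was listed at a mean of 0.878 FPKM and Ptges3l, a coding gene of similar name, at 7.57. Their sequences were not compared with Ptges3, and whether they share fragments with it is not known.

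Ptgis, the prostacyclin synthase, and Ptger4, the EP4 receptor of prostaglandin E2, were near the limit of detection. Ptgis (chr2:167191805-167240604, minus strand) was at 0.133, 0.282 and 0.237 FPKM in Con, 0.236, 0.376 and 0.255 in TNF-α, and 0.238, 0.201 and 0.318 in TNF-α+WBT, on an estimated 6.91 to 14.8 fragments per library. The groups overlapped, and the interval of TNF-α against Con ran from 0.80 to 1.90 in fold (adjusted p 0.676 in limma). An exon of 1110018N20Rik overlaps it on the other strand, at a mean of 0.534 FPKM.

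Ptger4 (chr15:5206661-5244187, minus strand) was at 0.0621, 0.148 and 0.119 FPKM in Con, 0.188, 0.136 and 0.0767 in TNF-α, and 0.224, 0.167 and 0.0918 in TNF-α+WBT. The groups overlapped, and the interval of TNF-α against Con ran from 0.70 to 1.75 in fold (adjusted p 0.876 in limma). Differences within this interval are compatible with the values. The transcript ENSMUST00000133966, annotated as processed, made up most of the value in 8 of 9 libraries, where the coding share was 12.1% to 39.6%, and the coding share was 65.6% in Con replicate 2. Exons of Ttc33, a gene on the other strand at a mean of 12.4 FPKM, overlap those of Ptger4. The library kit is not described as keeping the strand, and reads of such pairs can then not be told apart.

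Among 12680 genes that averaged 1 FPKM or more, those closest in pattern to the 3 most abundant of the 8 genes were found by Pearson's r of log2(FPKM + 0.1) over the 9 libraries. For Ptgs2 they were Amigo1 (r = 0.971), Pgs1 (0.962) and Dirc2 (0.961), for Ptges3 Minos1 (0.966), Arhgap5 (0.927) and Hlcs (0.922), and for Pla2g4a Emc7 (0.943), Nxpe3 (0.938) and Igsf8 (0.923). The points share their libraries and groups, and these values describe the best matches of a wide search.

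The wider arachidonic acid pathway, its regulators and cAMP-responsive genes were read from 103 other genes, listed with earlier results of these data known. Of these, 101 were in the table and 83 were tested. After TNF-α, 10 rose and 6 fell at an adjusted p under 0.05 in limma, 19.3% of those tested. Among the 61 that averaged 1 FPKM or more 24.6% passed, and among all 12684 genes at that level 8.37%. Of the 10 rises and 6 falls, 3 and 2 were regulators, and 2 and 2 were EP4 signalling and cAMP-response genes. With TNF-α+WBT against TNF-α, 0 passed. With TNF-α+WBT against Con, 5 rose and 6 fell, 13.3% of the 83. Of the 61, 10 passed (16.4%), against 6.46% of all genes at that level.

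Upstream of the cyclooxygenases, 1 of 18 phospholipases and lipases passed after TNF-α. Pla2g4c, a calcium-independent relative of Pla2g4a, rose from 0.106 ± 0.0294 to 0.312 ± 0.0637 FPKM (log2 fold change 1.0, adjusted p 0.0400 in limma) and was at 0.140 ± 0.0326 with WBT (-0.78 against TNF-α, adjusted p 0.625). Its mean over all libraries, 0.186 FPKM, lay between those of Ptger4 (0.135) and Ptgis (0.253), which were near the limit of detection. The most abundant of this list, Plaa, an activator of phospholipase A2, was at 34.1, 33.4 and 33.8 FPKM in the 3 groups. Of 8 genes of arachidonate supply and reacylation 0 passed, and the most abundant, the desaturase Fads2, was at 83.8, 82.8 and 80.2 FPKM.

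Among the other prostanoid synthases 1 of 6 passed. Ptgds, which makes prostaglandin D2, rose after TNF-α from 9.28 ± 0.747 to 15.6 ± 0.882 FPKM (0.75, adjusted p 0.0142) and was at 13.7 ± 2.88 with WBT, so it was well above Ptges in level. Akr1b3, an aldose reductase with prostaglandin F synthase activity, was the most abundant at 116 ± 3.81, 136 ± 13.8 and 132 ± 1.51 FPKM (adjusted p 0.117 after TNF-α). Of 6 genes of transport and breakdown, Ptgr1, a prostaglandin reductase, rose from 5.61 ± 0.275 to 7.24 ± 0.619 FPKM (0.36, adjusted p 0.0387), and the related Ptgr2 was the most abundant at 11.5 to 12.4. Of the 5 prostanoid receptors tested beside Ptger4, 0 passed. Ptger1, the EP1 receptor, was the most abundant at 2.28 ± 0.467 FPKM in Con and 2.34 ± 0.562 in TNF-α.

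Genes of the leukotriene and epoxygenase branches, which use the same arachidonic acid, passed as well. Ltc4s, the leukotriene C4 synthase, rose from 38.8 ± 2.13 to 75.9 ± 1.21 FPKM after TNF-α (0.97, adjusted p 3.62e-05) and was at 73.8 ± 5.48 with WBT, while the other 7 lipoxygenase and leukotriene genes tested did not pass. The most abundant of these, Lta4h, the leukotriene A4 hydrolase, was at 85.6 ± 4.13 and 80.8 ± 2.46 FPKM. All 3 epoxygenase genes tested passed after TNF-α. The epoxygenases Cyp2j6 and Cyp2j9 fell from 53.1 ± 0.895 to 37.2 ± 0.651 FPKM (-0.51, adjusted p 3.10e-05) and from 32.3 ± 1.10 to 17.6 ± 0.298 (-0.87, adjusted p 6.36e-06). The epoxide hydrolase Ephx1 rose from 114 ± 8.59 to 145 ± 5.47 FPKM (0.34, adjusted p 0.0309).

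Of 12 genes known to regulate Ptgs2, Ptges or phospholipase A2, 3 rose and 2 fell after TNF-α. Nfkb1, a subunit of NF-κB, went from 50.7 ± 2.64 to 65.8 ± 1.72 FPKM (0.38, adjusted p 0.00352) and Cebpd, a C/EBP factor, from 7.0 ± 0.283 to 11.1 ± 0.283 (0.65, adjusted p 0.000961). Anxa1, a protein that restrains phospholipase A2, was the most abundant and rose from 250 ± 2.11 to 279 ± 2.45 FPKM (0.16, adjusted p 0.0167). The factor Egr1 fell from 7.41 ± 0.295 to 4.66 ± 0.181 FPKM (-0.66, adjusted p 0.000602) and the AP-1 subunit Jun from 101 ± 1.77 to 40.2 ± 1.52 (-1.33, adjusted p 1.18e-06). Jun was at 47.0 ± 2.17 with WBT, 0.22 above TNF-α on the log2 scale with an adjusted p of 0.354.

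Of 17 genes of EP4 signalling and the cAMP response 2 rose and 2 fell after TNF-α. The nuclear receptor Nr4a1 rose (0.34, adjusted p 0.0365), as did the kinase Sik1 (0.45, adjusted p 0.0132), whereas Nr4a2 fell (-0.63, adjusted p 0.0118), as did the adenylyl cyclase Adcy9 (-0.42, adjusted p 0.0329). Nr4a3 was at 0.579 ± 0.228 FPKM in Con, 0.173 ± 0.00872 in TNF-α and 0.112 ± 0.0614 in TNF-α+WBT. It passed in TNF-α+WBT against Con (-1.65, adjusted p 0.0244), with -1.25 for TNF-α against Con (adjusted p 0.0662) and -0.40 for TNF-α+WBT against TNF-α (adjusted p 0.885). Gnas, which encodes the G protein that couples EP4 to adenylyl cyclase, was the most abundant at 240 ± 35.4, 277 ± 67.6 and 274 ± 49.5 FPKM.

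**Figure D5:**
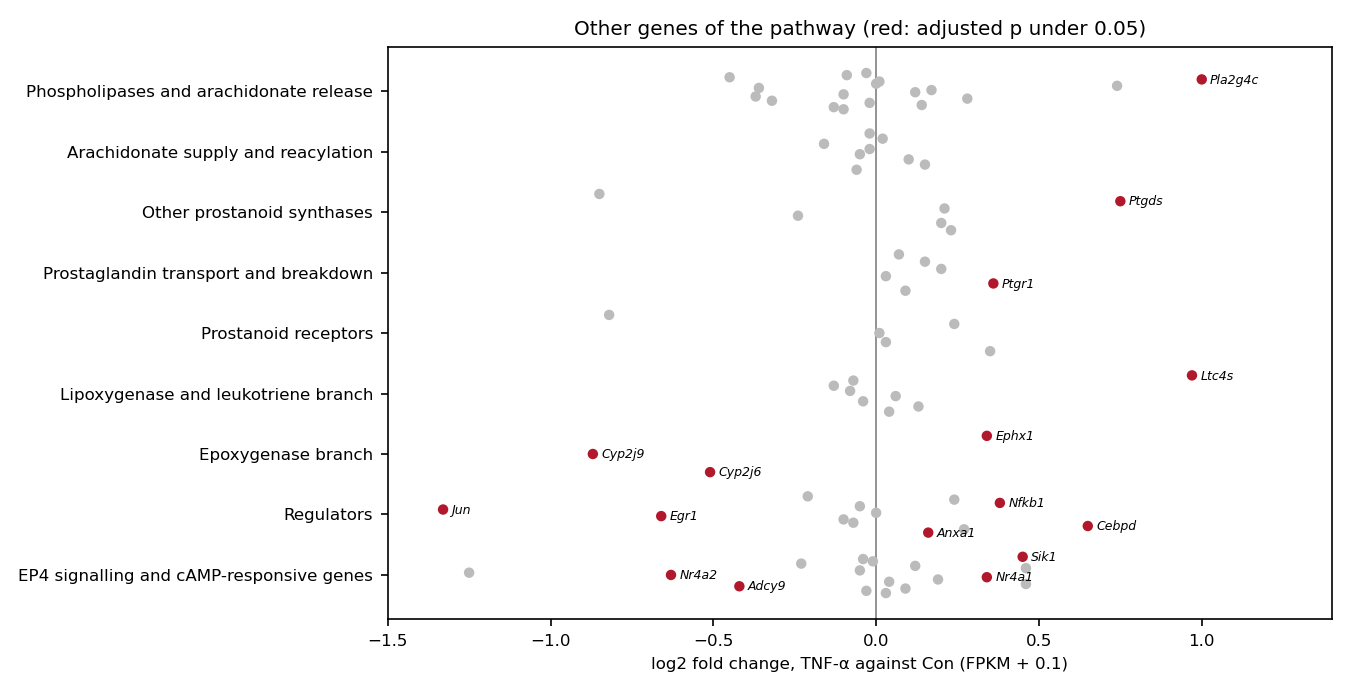
Log2 fold change of TNF-α against Con (x axis, on FPKM + 0.1) for the 83 tested genes of the 9 pathway lists (rows), each point a gene, with those at an adjusted p under 0.05 in red and named. The 10 that rose include Ltc4s and Ptgds, the 6 that fell include Jun, Cyp2j9 and Cyp2j6, and no gene of arachidonate supply or of the prostanoid receptors is marked.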

How the data were processed

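The authors deposited FPKM per gene and per transcript for 9 poly(A) paired-end libraries. The study's workflow scheme names HISAT2, StringTie and Ballgown; versions, genome build and annotation are not given in the sources used here. Symbols and positions are from GENCODE M21 (GRCm38), in which 98.0% of gene IDs had a symbol. The sample labels' WBP was taken as the study's WBT.

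The 25417 genes with a value above 0 in 3 or more libraries were compared with limma 3.58.1 (R 4.3.3, eBayes with trend) on log2(FPKM + 0.1), with one mean per group over 9 libraries and p-values adjusted by Benjamini-Hochberg over all tested genes. TNF-α was set against Con, and TNF-α+WBT against TNF-α and Con. Transcripts were fitted likewise. An exact two-sided permutation test was run for each of the 8 genes wherever the libraries of a comparison separated fully. FPKM do not state depth, so fragments were estimated from 10717 genes; 55.9% to 60.3% of low values lay within 0.1 of a whole fragment, so these counts are approximate and served for precision and for one limma-voom alternative. The fit was also run on simulated data with the same dispersion for every gene and changes only in well-covered genes. That run does not cover genes as low as Ptgis and Ptger4, and its outcome is not used here.

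The 8 genes, the pathway and marker lists and the rules were chosen with earlier results of these data known. All 8 genes were named, and from each list at most 4 genes of smallest p among those past an adjusted p of 0.05 in any comparison, and the most abundant gene. Adcy9, beyond that number, was named after its value was seen. Patterns were matched for the 3 most abundant of the 8 genes because none passed after TNF-α. Alternatives covered pseudocount, filter, trend, samples in the fit, scaling, transcript sums, the replicate number as a block, single libraries left out and limma-voom. Figures were drawn with matplotlib 3.10.9, and tables were handled in Python 3.11.15 with pandas 2.3.3, scipy 1.17.1 and numpy 2.4.6.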

Additional observations from a re-analysis of the deposited data

How the results depend on the processing

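Of the member fold changes recomputed under the alternatives, 449 kept their direction and side of the threshold, 7 lost the call and 18 changed sign, none of which had passed the test. The number of members called in TNF-α+WBT against Con, 1, became 0 without the intensity trend (adjusted p of Ptgs2 0.0518) and 0 with only the 2 groups in the fit (0.0840), and was 0 to 1 with single libraries left out; 13 of 20 alternatives kept it, and the cause of the losses was not tested. In the other comparisons 0 members passed under every alternative run. With limma-voom on estimated fragments Ptges2 became 0.086 in TNF-α against Con and Ptges 0.063 in TNF-α+WBT against TNF-α, and quantile normalization gave 0.003 for Ptges3 in the latter. With single libraries left out, TNF-α against Con ran from -0.175 to 0.090 for Ptges2, -0.081 to 0.005 for Ptges3, -0.005 to 0.073 for Pla2g4a and -0.025 to 0.335 for Ptger4. TNF-α+WBT against TNF-α ran from -0.022 to 0.283 for Ptgs1, -0.134 to 0.011 for Ptges, -0.028 to 0.002 for Ptges3, 0.005 to 0.284 for Ptges2, -0.269 to 0.015 for Ptgis and -0.029 to 0.363 for Ptger4. TNF-α+WBT against Con ran from -0.035 to 0.238 for Ptges2 and -0.040 to 0.318 for Ptgis. The mean log2 ratio of Ptgs1 to Ptgs2 in TNF-α+WBT, 0.31, became -0.30 with coding transcripts only, a choice made after seeing the data, and -0.83 and -0.19 in Con and TNF-α became -1.17 and -0.73.

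The labels do not say whether replicate numbers pair the libraries. Same-numbered libraries correlated at -0.05 to 0.10 in their deviations from group means. With the replicate number as a block, 893, 0 and 701 genes passed in the 3 comparisons (1236, 1 and 942 without it), and 0, 0 and 1 of the 8 genes, with an adjusted p of 0.0301 for Ptgs2. Over all alternatives 828 to 1811, 0 to 11 and 588 to 1318 genes passed, the 588 without Con replicate 3. Depth limits Ptgis and Ptger4, with under 16 estimated fragments per library.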
